A study of Gallus gallus with 2 samples.

Results

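The genes described here carry the names of developmental transcription factor families. They are the homeobox families HOX, PAX, SIX2, SIX3 and their relatives, LHX, NKX, DLX, MSX, PITX, OTX, IRX and MEIS, the SOX family, the forkhead (FOX) family and the T-box (TBX) family. The set was chosen with earlier results of these data known. Members were selected by symbol, not by measured value, among array probes whose RefSeq accession matched a chicken RefSeq entry. PAX5 and FOXM1 were left out. This gave 79 genes read by 144 probes, out of 5382 named genes read by 11935 probes. RNA came from DT40, a chicken B cell line, carrying a double knockout of H2A.Z, a variant of histone H2A found in a subset of nucleosomes. One culture stably expressed FLAG-H2A.Z.1 and the other FLAG-H2A.Z-R80C, a mutant associated with cancer, and both grew at 38 degrees Celsius in medium with 10% fetal bovine and 1% chicken serum, without tetracycline. Both groups therefore share the knockout, the tag and the culture conditions. They are separate cultures, so a difference between the cultures and one due to R80C cannot be told apart. Each group is 1 array, so no test, p-value or replicate error exists and every difference below describes 2 arrays. The sources used here do not say whether each culture grew from a single clone or what tetracycline controlled.

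These proteins bind DNA through a homeodomain, a paired domain (PAX), an HMG box (SOX), a forkhead domain (FOX) or a T-box. They set the identity of body regions and tissues in the embryo. HOX genes lie in clusters, and their order there follows the body region in which they act. In mouse embryonic stem cells many such genes are kept silent by Polycomb complexes, and H2A.Z has been mapped to their promoters. In mouse B cells FOXO1 and FOXP1 act in early development and in antigen receptor gene rearrangement, and SOX4 is needed for early B cell development, whereas most of the other members are known from neural, limb, heart or gut tissue.

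Of the 43803 spots that were not controls, the scanner software flagged 70.1% (H2A.Z.1) and 71.5% (R80C) as well above background. Signals are background-subtracted intensities, each with an error estimated by the same software, and differences are R80C minus H2A.Z.1 after division of each array by its 75th percentile (1078 and 1055). The lowest flagged signal, taken as the detection limit, was 6.95 (H2A.Z.1) and 5.81 (R80C). Some probes without the flag read above it, such as MEIS1 with H2A.Z.1 (8.77) and LHX9 with R80C (6.98). Folds counted from this limit are therefore not strict minimums. Every one of the 12 B cell markers with a named probe was well above background on both arrays, against 6 of 8 T and NK cell markers, 3 of 5 myeloid markers and 4 of 8 fibroblast markers. CD79B, a chain of the B cell receptor, read 109554 and 106246. Markers on the T and NK cell, myeloid and fibroblast lists were mixed, and a place on a list does not make a gene exclusive to that cell type. CD3D (70974 and 63969), CD3E (613 and 163) and SPI1 (663 and 671) were well above background on both arrays, while CD4, GATA3, CD14, DCN and PDGFRA were below it on both. CD3E was 2.91-fold lower in R80C cells (-1.54), the 1 T and NK cell marker to differ by 1.5-fold. H2AFZ, the H2A.Z.1 gene, read 1537 and 1475 at its first probe and 883 and 933 at its second. Whether these probes also read the transgene is not known here, so they check neither the knockout nor the labels.

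A gene was counted as expressed where at least 1 of its probes was well above background on both arrays. By that rule 41 of the 79 genes (51.9%) were expressed, 35 were silent on both arrays, and 3 were above background on 1 array only. Among all named genes 80.4% were above background on both arrays, 17.3% on neither and 2.32% on 1 array only. The detected share differed between families. It was 38.8% for the homeobox families together (19 of 49 genes) and 73.3% for SOX, FOX and TBX together (22 of 30 genes). In such RNA from a whole culture, fewer cells expressing a gene and less RNA per cell cannot be told apart. All 10 FOX genes were expressed, as were 7 of 11 SOX and 5 of 9 TBX genes, against 4 of 17 HOX genes and 0 of 4 LHX genes.

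**Figure D1:**
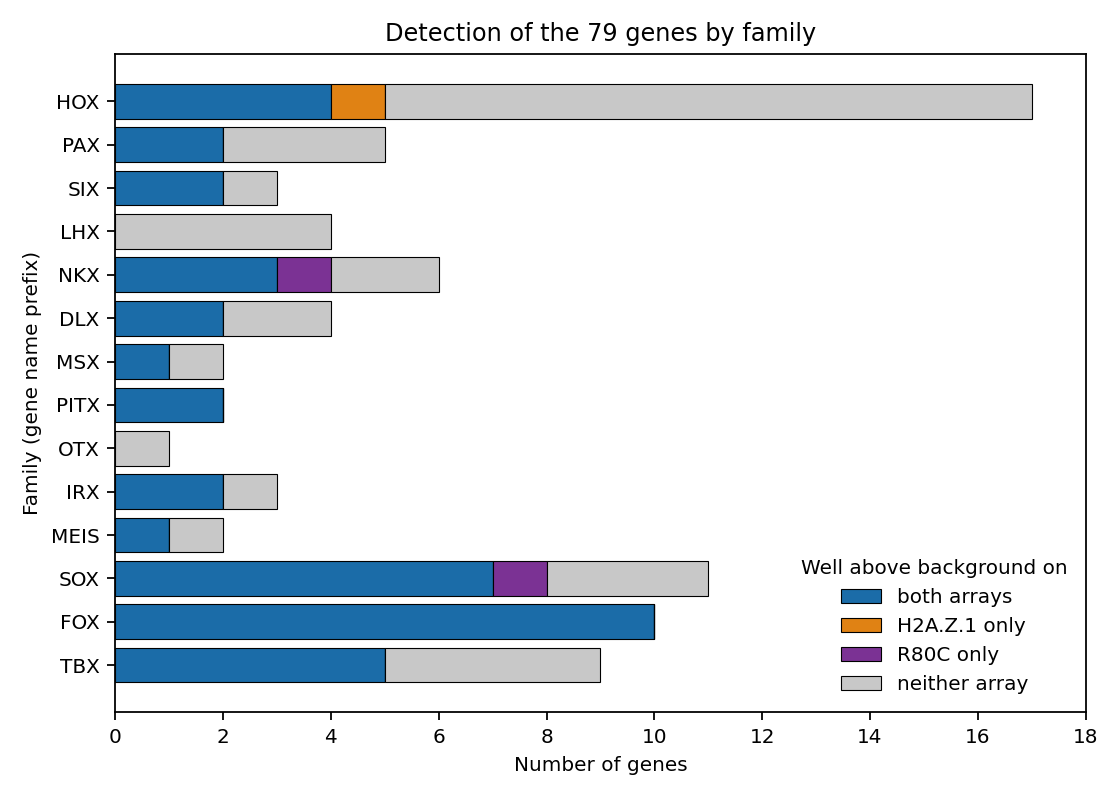
Number of genes of each family (horizontal axis) that were well above background on both arrays, on 1 array only or on neither. The grey part is longest in HOX, with 12 of 17 genes on neither array, and absent in FOX, where all 10 genes were on both.

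The expressed members were dim. Their median signal was 41.9, against 902 for all named genes measured on both arrays, and 23 of 41 (56.1%) had a mean signal under 50, against 14.8% of the named genes. Signals of different probes do not rank RNA levels, since each probe binds with its own strength. The flag also depended on the probe. Of 30 expressed members with several probes, 21 (70.0%) had at least 1 probe below background, against 469 of the 3127 such named genes. All probes lay above background in DLX1, FOXD1, FOXN2, FOXO1, HOXA4, MEIS2, MSX1, PAX3 and TBXT, which have 2 to 4 probes each.

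Between the arrays the expressed members differed little. Their median difference was 0.023 on the log2 scale, with 23 genes above 0 and 18 below, and that of all 4326 named genes measured was 0.013. Of the 41 genes, 36 (87.8%) lay within 1.25-fold, against 92.8% of the named genes. FOXD1 alone was higher with R80C by 1.5-fold or more, against a background over named genes of 0.67%. PAX3 and SOX9 were lower by 1.5-fold or more, against a background of 1.27%. None reached 2-fold, which 0.462% of the named genes did. All 3 were among the 23 members with a mean signal under 50. Of the 642 named genes that dim, 41 (6.39%) differed by 1.5-fold in either direction, a smaller share than 3 of 23. So few members cannot set the shares apart, and SOX9 passed narrowly, at 1.51-fold. The share of named genes was 5.17% at signals of 50 to 200 and 0.448% at 200 or more. Of the 18 members at a signal of 50 or more, 10 in the middle class lay between -0.28 and 0.13 and 8 in the bright class between -0.02 and 0.13.

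**Figure D2:**
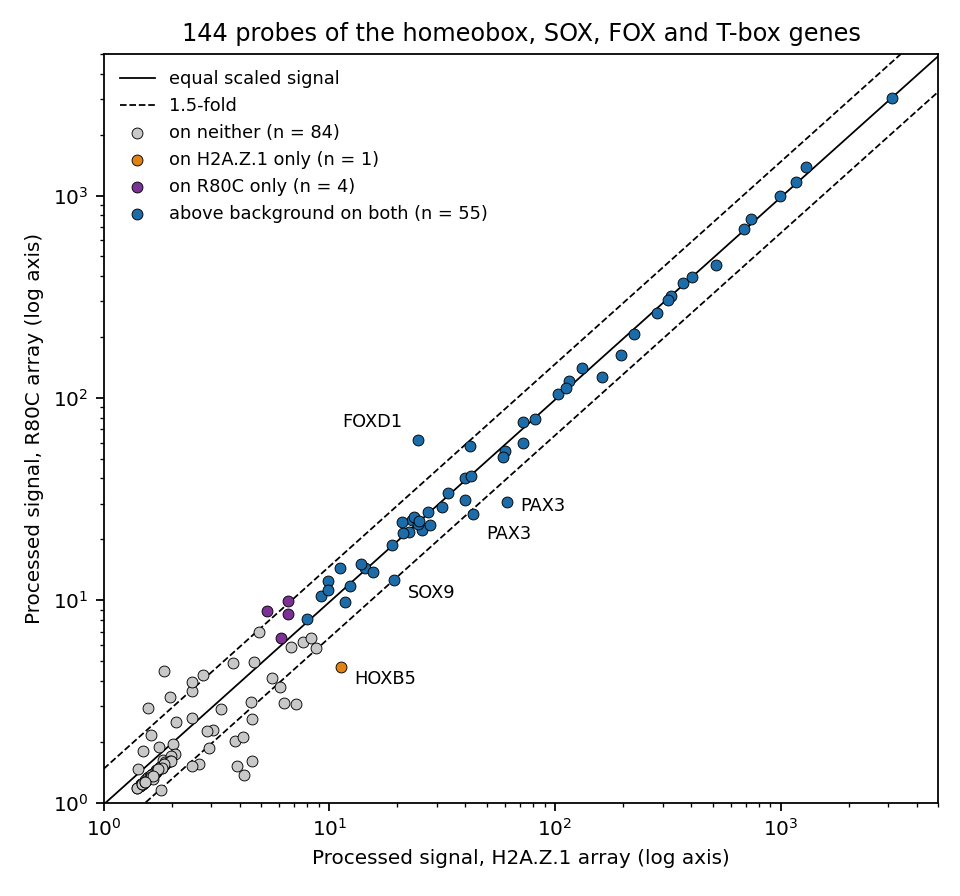
Processed signal of the 144 probes with H2A.Z.1 (horizontal, log axis) and with R80C (vertical, log axis), coloured by detection. The solid line marks equal scaled signals and the dashed lines 1.5-fold. Every probe beyond the dashed lines has signals below 100 on both arrays.

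HOX genes give cells their position along the body axis. In the HOXA cluster HOXA4, HOXA7 and HOXA11 were expressed, while HOXA2, HOXA6 and HOXA13 were silent. HOXA4 read 515 with H2A.Z.1 and 452 with R80C at its first probe, and 40.0 and 31.4 at its second. Both probes were lower in R80C cells, the first by less than its software error, and the gene stood at -0.24, a 1.18-fold difference. HOXA7, read by 1 probe, gave 27.8 and 23.5, a difference of -0.21 that lay within its software error of 0.23. HOXA11, which acts in limb and kidney, gave 14.5 on both arrays at 1 of its 2 probes, and its other probe was below background.

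Among the 4 HOXB genes with a probe, HOXB1, a gene of hindbrain patterning, was expressed. It gave 369.4 with H2A.Z.1 and 369.8 with R80C at 1 probe, while its other probe read 2.02 and 1.94, below background. HOXB5 was above background in H2A.Z.1 cells only. Its second probe read 11.2 there and 4.70 in R80C cells, a difference of -1.22 with a software error of 0.62. Counted from the detection limit of the R80C array, this probe was 1.89-fold lower. The other 2 HOXB5 probes were below background on both arrays. HOXB4 and HOXB8 were silent, as were both HOXC genes (HOXC8 and HOXC9) and all 5 HOXD genes (HOXD4, HOXD8, HOXD11, HOXD12 and HOXD13). Across the 12 silent HOX genes, 21 probes read between 1.20 and 4.87. By number, silent HOXA6 lies between the expressed HOXA4 and HOXA7.

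**Figure D3:**
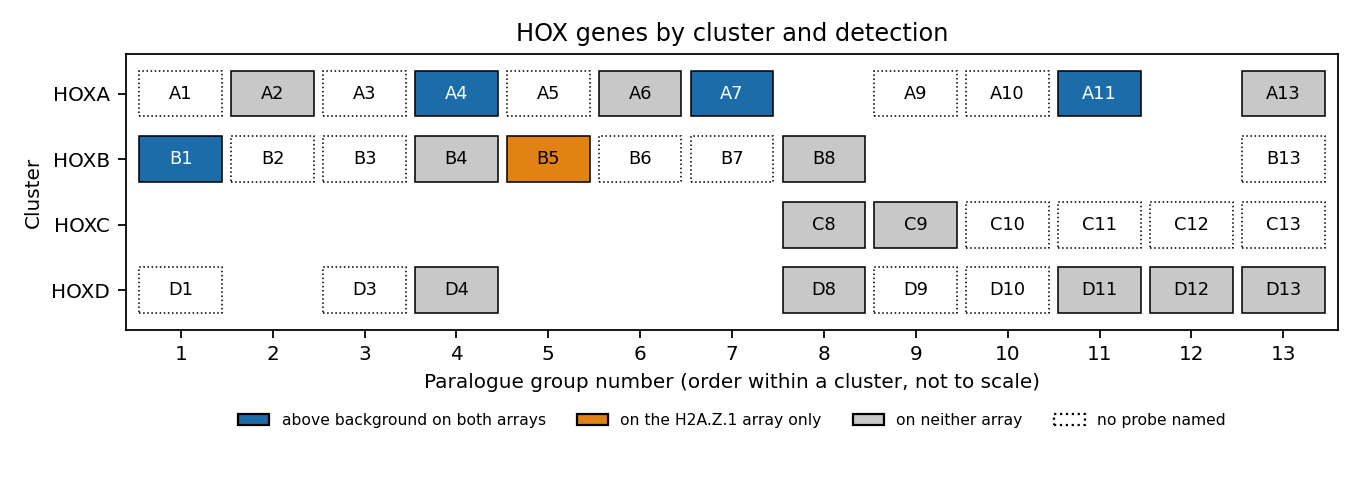
HOX genes of the 4 clusters (rows) by paralogue number (horizontal axis, not to scale), coloured by detection. In the RefSeq annotation used here the HOXB genes did not lie in number order, so that row shows numbers and not places. Dotted boxes are genes for which no probe was named here. Filled blue boxes mark HOXA4, HOXA7, HOXA11 and HOXB1, and every HOXC and HOXD gene with a probe is grey.

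MEIS and IRX proteins belong to the TALE class of homeodomain proteins, and MEIS proteins bind DNA together with HOX proteins. MEIS2 read 196 with H2A.Z.1 and 163 with R80C at its first probe, and 161 and 126 at its second. Both probes were lower in R80C cells, and the gene stood at -0.28, a 1.21-fold difference, the farthest from 0 among members with a signal of 50 or more. MEIS1, a partner of HOX proteins in blood stem cells, was silent, with 8.77 and 5.81 at its only probe. IRX1 gave 42.5 and 41.2 and IRX2 gave 15.6 and 13.9, each at 1 of several probes. Their differences were -0.01 and -0.14, and IRX4, a heart ventricle gene, was silent.

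PAX proteins carry a paired domain, in some members joined to a homeodomain. PAX3, which marks neural crest and muscle progenitors, read 61.4 with H2A.Z.1 and 30.7 with R80C at its first probe, with software errors of 6.32 and 3.32. Its second probe read 43.3 and 26.6. Both probes were lower in R80C cells, and the gene was 1.77-fold lower (-0.82). Its close relative PAX7, a gene of muscle stem cells, gave 81.9 and 78.4 at 1 of 3 probes, a difference of -0.03. PAX2, PAX6 and PAX9, which act in kidney, eye and pharynx, were silent, with signals between 1.23 and 6.27. PAX5, the B cell member left out of the set, read 201 and 194.

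SIX2, SIX3 and the NKX and LHX genes act in sense organs, ventral neural tube and inner organs. SIX3, a forebrain and eye gene, read 11.2 with H2A.Z.1 and 14.4 with R80C, 1.32-fold higher (0.40) at a signal near the detection limit. SIX2 was silent. Of the NKX genes, NKX2-1 (thyroid and lung), NKX3-2 (skeleton) and NKX6-2 (neural tube) were expressed. NKX6-2 read 31.6 and 72.2 with H2A.Z.1 and 28.8 and 59.6 with R80C at 2 probes, a gene difference of -0.17. Its remaining probe ran the other way, 6.58 against 9.94, and was above background in R80C cells only. NKX2-3, which mouse spleen and gut need, was above background in R80C cells only, at 8.89 against 5.31. Its difference was 0.77, with a software error of 0.50, or 1.31-fold when counted from the H2A.Z.1 detection limit. NKX2-5, the heart gene, NKX2-6, LHX2, LHX3, LHX8 and LHX9 were silent. LHX3, a pituitary gene, read 7.13 and 3.08, and LHX9 read 4.90 and 6.98 at its second probe, each without the flag.

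DLX, MSX, PITX and OTX genes act in forebrain, head and limb. DLX1, a gene of forebrain interneurons, read 25.7 and 225 with H2A.Z.1 and 22.3 and 206 with R80C at its 2 probes, a gene difference of -0.13. DLX3, known from skin and placenta in the mouse, read 9.82 and 12.5 at 1 of 2 probes, a difference of 0.38. DLX3 and SIX3 both lay just above the detection limit, and neither reached 1.5-fold. MSX1 and PITX1, which is known for hindlimb identity, differed by 1.02-fold or less. DLX5, DLX6, MSX2 and OTX2 were silent.

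SOX genes include SOX4, which had one of the highest signals of the set. It read 1168 with H2A.Z.1 and 1163 with R80C, a difference of 0.02. SOX9, the cartilage and testis regulator, read 19.4 and 12.6 at 1 of 2 probes, with software errors of 2.72 and 2.01. It was 1.51-fold lower in R80C cells (-0.59), and its other probe was below background on both arrays. SOX3 gave 112 on both arrays at 1 of 3 probes. SOX17, an endoderm gene, gave 103 and 104 at the brighter of its measured probes. The other expressed members, SOX5, SOX10 and SOX18, differed by 1.11-fold or less at signals of 25.7 or lower. SOX2, a pluripotency factor, was above background in R80C cells only, but its signals of 6.12 and 6.50 were close to each other and below the H2A.Z.1 detection limit, so no fold is given. SOX1, SOX8 and SOX14 were silent.

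Several FOX genes had bright probes. FOXO1, a target of the kinase AKT, was read by 4 probes, of which the first gave 3108 with H2A.Z.1 and 3022 with R80C. The 4 probe differences lay between -0.07 and 0.01, with a gene value of -0.02. FOXD2 read 740 and 762 (0.07), and FOXN2 read 997 and 993 at its brighter probe, with a gene value of 0.07. FOXP1 gave 131 and 141, a difference of 0.13. These 4 FOX genes therefore stayed within 0.13 of 0 on the log2 scale.

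FOXD1, a gene of kidney stroma and forebrain, was the member farthest from 0. Its first probe read 24.6 with H2A.Z.1 and 61.7 with R80C, with software errors of 2.97 and 6.32. Its second read 42.2 and 57.6, with errors of 4.62 and 5.97. Both probes were higher in R80C cells but by different amounts, 2.56-fold and 1.40-fold, and the gene value was 1.89-fold (0.92). Beside this difference, the summed scaled signal of 8 fibroblast markers, each gene at its brightest probe and in units of the array's 75th percentile, was 0.644 with H2A.Z.1 and 1.21 with R80C. Most of it came from COL1A2 (610 and 1197). The 4 measured markers were split, with COL1A2 at 0.94 and LUM at 0.27 against TWIST1 at -0.34 and COL3A1 at -0.08. The other 4, among them the defining markers DCN and PDGFRA, were below background, and the part of these markers in the FOXD1 value was not tested. FOXD3, a neural crest gene, gave 60.2 and 54.6 at its brighter probe (-0.11). Its other probe ran the other way, 6.58 against 8.51, and was above background in R80C cells only. That difference of 0.40 lay within its software error of 0.43. FOXL2, an ovary gene, gave 39.9 and 40.4, and FOXA2, an endoderm gene, 12.3 and 11.8 at 1 of 2 probes. FOXN4 gave 11.7 and 9.81 at 1 of 4 probes, a difference of -0.23. FOXM1, left out of the set, stood at -0.24 over 4 probes.

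T-box genes act in mesoderm, limb and heart. TBX6, a gene of paraxial mesoderm, read 316 with H2A.Z.1 and 305 with R80C at 1 of 2 probes (-0.02). TBXT (brachyury), the founding T-box gene and a marker of early mesoderm, read 9.83 and 21.1 with H2A.Z.1 and 11.3 and 24.4 with R80C at its 2 probes. Both were higher in R80C cells, by a mean of 0.24, or 1.18-fold, but each by less than its software error (0.33 and 0.25). TBX3 gave 72.0 and 75.9 (0.11) at 1 of 2 probes. TBX5, the forelimb and heart gene, had a gene value of 0.14 over 2 of 3 probes. TBX22, a palate gene, gave 19.0 and 18.8 at 1 of 3 probes. The remaining probes of TBX3, TBX5 and TBX22 were below background on both arrays. TBX4 of the hindlimb, TBX18, TBX19 of the pituitary and TBX20 of the heart were silent, with signals between 1.24 and 4.49.

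**Figure D4:**
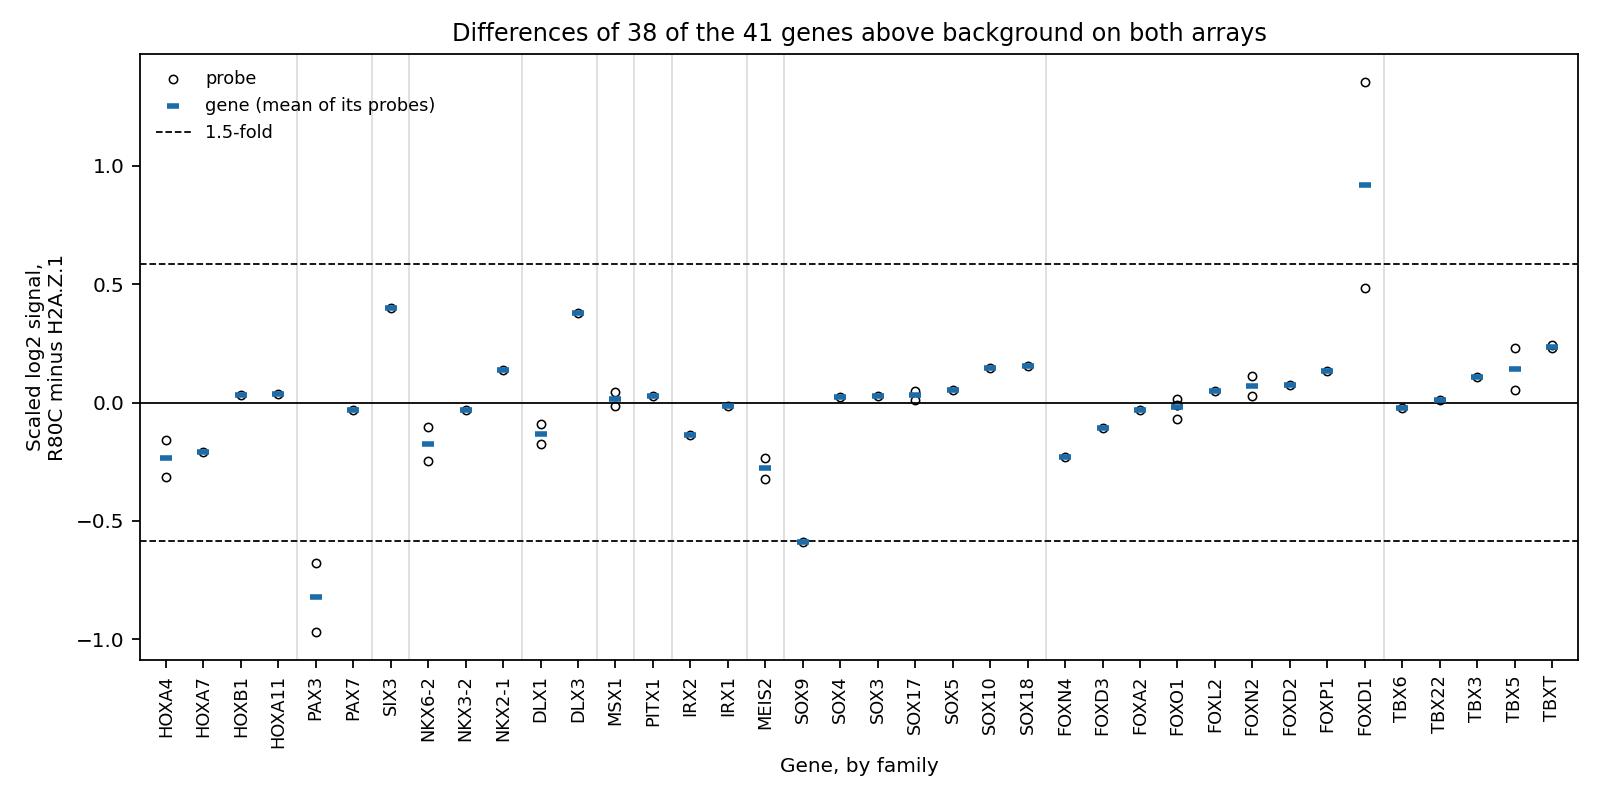
Difference in scaled log2 signal, R80C minus H2A.Z.1 (vertical axis), for 38 of the 41 expressed genes, grouped by family. Circles are probes well above background on both arrays, blue bars the mean over a gene's probes, and dashed lines 1.5-fold. FOXD1 (0.92), PAX3 (-0.82) and SOX9 (-0.59) lie beyond the lines and the rest within.

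The technical precision of the arrays can be stated in part, though not the biological spread. Among 39 probes printed several times and measured on both arrays, the SD of the difference between spots was 0.053. None of these was a measured member probe, since each of those had 1 spot, so this SD does not describe the members. Between probes of 1 gene it was 0.094 over all named genes and 0.19 over the 12 members with several measured probes. Most of the member value came from FOXD1 alone, whose 2 probes stood at 1.36 and 0.48. The scanner software's own errors, combined for a difference, ran from 0.20 to 0.39 for the 55 measured member probes. Of these, 10 probes of 7 genes (FOXD1, HOXA4, MEIS2, NKX6-2, PAX3, SIX3 and SOX9) lay farther from 0 than their error, or 18.2%, against 1128 of 9405 measured named probes. More than 2 errors from 0 lay 4 probes, which were both PAX3 probes and both FOXD1 probes, or 7.27% against 2.95%. These errors cover the spot and not a second culture. Member and named probes were not matched for signal in these shares, and the expressed members were dimmer.

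No difference was counted for the silent members, since none of their probes was well above background on either array. Of 84 member probes below background on both arrays, whose signals ran from 1.16 to 8.77, 43 had a signal equal to the software's own error within 1% on both arrays. At those 43 probes the scaled differences all lay between -0.27 and -0.21, which is the ratio of the error floors of the arrays, so no RNA difference can be read from them. In 11 of the 35 silent genes every probe was of this kind. The remaining probes lay off this floor on at least 1 array. Some of them, LHX3 and MEIS1 among them, were lower in R80C cells by more than their software error, but without the flag.

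Other homeobox genes and HOX partners, from a list of 84 of which 38 had a named probe, gave 22 expressed genes (57.9%). Their median difference was 0.03, with 13 above 0 and 9 below, and none was 1.5-fold different. HHEX, which acts in early blood development, read 31427 with H2A.Z.1 and 31560 with R80C at its brightest probe, and PBX3, a HOX partner, read 5565 and 5456. The extremes of the list were dim, GBX2 (13.6 and 18.0, a difference of 0.43) and HMX3 (13.8 and 10.7, -0.34). Of 55 Polycomb and Trithorax genes, which keep developmental genes silent or active, 19 had a named probe and all 19 were expressed. Their median was 0.03, none was 1.5-fold different, and the extremes were BMI1 (0.22, 203 and 233) and RBBP7 (-0.12, 501 and 450). Over all named genes measured, 0.67% were higher and 1.27% lower by 1.5-fold. At such shares, finding none among 22 or 19 expressed genes says little about either list.

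**Figure D5:**
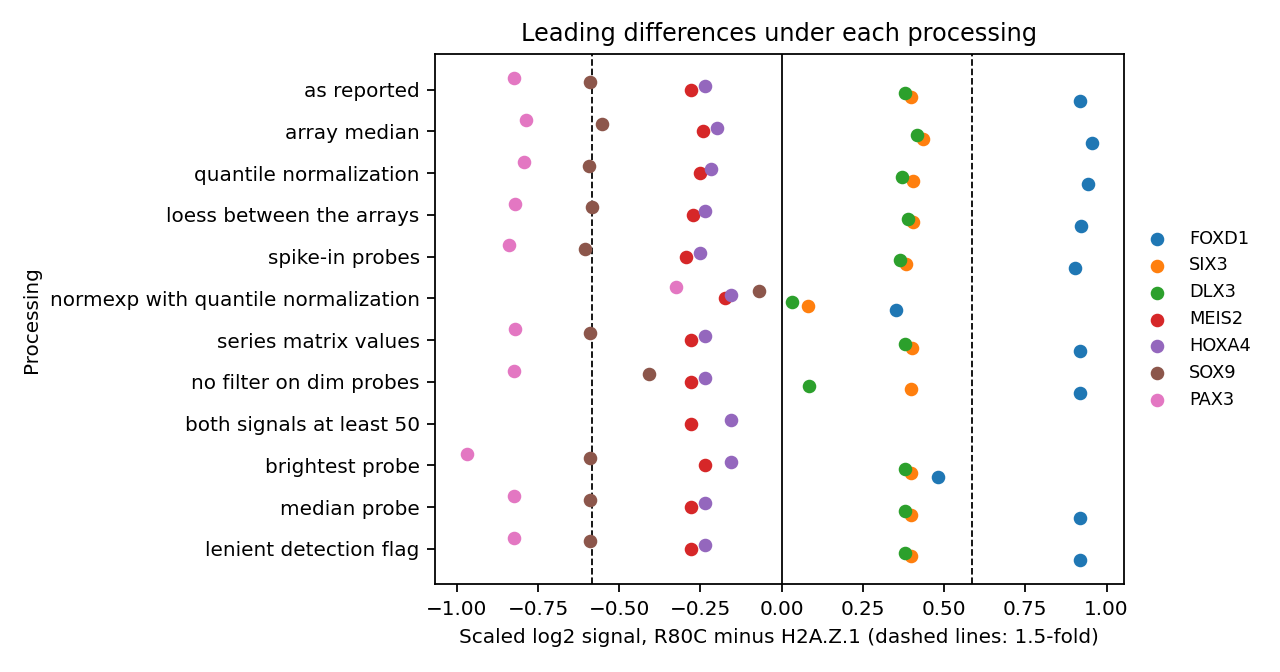
Difference of 7 genes (horizontal axis, scaled log2 signal, R80C minus H2A.Z.1) under each processing (rows), with dashed lines at 1.5-fold. FOXD1 lies right of 0 and PAX3 left of 0 wherever they have a value, and after normexp correction they move to 0.35 and -0.33. With both signals at least 50, only MEIS2 and HOXA4 of these genes have a value.

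The sizes of the leading differences followed the treatment of background. After normexp background correction with quantile normalization, which adds an offset of 50, FOXD1 stood at 0.35, PAX3 at -0.33 and SOX9 at -0.07. With the brightest probe alone FOXD1 stood at 0.48 and PAX3 at -0.97. MEIS2 and HOXA4, brighter by mean signal, moved from -0.28 and -0.24 to -0.17 and -0.16 under normexp. An added offset shrinks differences more at low signals, so this smaller shift does not show firmer differences. Among the members, 9 genes that lay within 0.033 of 0 changed sign under another scaling of the arrays, among them FOXA2, FOXO1, IRX1, MSX1, PAX7 and TBX6, and the other 32 kept theirs under those scalings. After normexp 9 members changed sign, of which SOX18 (0.15 to -0.06) and IRX2 (-0.14 to 0.01) lay farthest from 0 as reported.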

How the data were processed

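Cy3-labelled cRNA from 100 ng of total RNA was read on 1-colour Agilent arrays, per the labels' protocols, with 1 array per group and both groups on 1 slide and in 1 scan, per the file headers. The deposited intensity values come from Agilent Feature Extraction 11.5.1.1 (protocol GE1_1105_Oct12, grid of galGal3), per the file headers, background-subtracted within an array and not normalized between arrays. Flags of 0 or 1 and each spot's error were deposited by the authors with them, as other columns. The deposited series matrix holds the same linear values times 1.50 (H2A.Z.1) and 1.51 (R80C), with column medians of 129.9 and 125.1. Its centring is none, and how the factor was chosen is unknown.

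Spots of a probe were averaged, signals were divided by the 75th percentile of each array and log2-transformed, and a gene's difference was the mean over its probes well above background on both arrays without saturated or outlier spots. Of 13060 probes with a RefSeq accession, 11935 matched a RefSeq table of assembly GRCg7b and 1125 did not. Symbols are those of that table, and members for which no probe matched were not analysed here. Some measured members are counted but not reported here by name. With 1 array per group no test was run. The number of arrays limits the precision. Thresholds were 1.5-fold and 2-fold. The quantification was tested on simulated data drawn from probes well above background. The simulation held no background or flag, and its noise did not grow at low signal, so it does not check dim members. Members were named, in detail those 1.5-fold different, with a fold of that size counted from the detection limit, brightest, or farthest from 0 in a family. The members and lists were chosen with earlier results of these data known. Alternatives were other scalings, normexp (limma 3.58.1, R 4.3.3), the series matrix, detection filters and probe summaries. Python 3.11.15 was used.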

Additional observations from a re-analysis of the deposited data

How the results depend on the processing

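No paired analysis was possible because each group has 1 array. The count of 41 expressed members became 20 when every probe of a gene had to be well above background, with 56 on neither array. No share over all named genes is given here for that rule. Under the more lenient flag 61 of 79 members and 4796 of 5382 named genes were above background on both arrays. The reported setting gave 41 and 4326, so the gap between members and named genes was smaller under the lenient flag. Of the members, 11 were then on neither array and 7 on 1 array only. FOXD1 was the 1 member at least 1.5-fold higher, and PAX3 and SOX9 the 2 lower, with quantile normalization, loess, spike-in scaling, the series matrix and the median probe. With the array median 1 was higher and 1 lower (PAX3), since SOX9 stood at -0.55. With the brightest probe 0 were higher. After normexp, and with both signals at least 50, 0 were higher and 0 lower, the latter with 19 members measured. Once dim probes were kept, 3 of all 79 members were higher and 7 lower, with a median of -0.14, where probes at their error floor enter. With the lenient flag, chosen after seeing the data, 3 were higher and 9 lower over 61 members. Of 4326 named genes measured, 29 were higher and 55 lower in the reported setting, and 7 and 15 after normexp. With both signals at least 50, 13 were higher and 29 lower of 3737. With no filter 143 were higher and 163 lower of 5382, and with the lenient flag 132 and 146 of 4796. Under no filter and under the lenient flag the members' shares, higher and lower, were larger than those of the named genes. These shares were not matched for signal, and members were dimmer than named genes, so they do not compare like with like. The median of the measured members stayed between -0.0023 and 0.061 in the other settings. Its split of 23 genes above 0 and 18 below was 30 and 11 with the array median and 21 and 20 with spike-in scaling. FOXD1, PAX3 and SOX9 kept their direction in every setting that gave them a value. With no filter on dim probes 7 expressed members changed sign, among them FOXA2 (-0.03 to 0.63, past 1.5-fold), FOXD3 (-0.11 to 0.15), NKX6-2 (-0.17 to 0.09), SOX10 (0.15 to -0.14) and TBX3 (0.11 to -0.06), and FOXD3 and NKX6-2 did so with the lenient flag too. Signals near 6 limit detection, and below 50 they limit the fold.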

Other observations

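Under the more lenient detection flag, 17 of the 35 silent members were above background on both arrays, among them 6 HOX genes (HOXB4, HOXB8, HOXC9, HOXD8, HOXD11 and HOXD13). The signals of these 6 HOX genes stayed under 5 on both arrays. Over all named genes the lenient flag raised the number above background on both arrays from 4326 to 4796. The highest reading of a silent member was that of MEIS1 (8.77 in H2A.Z.1 cells), followed by SIX2 (8.30). HOXB4, which is known to expand blood stem cells in the mouse, read 1.68, 3.81 and 4.52 in H2A.Z.1 cells and 1.40, 2.01 and 1.61 in R80C cells at its 3 probes. All 3 were below background on both arrays, and the first on both arrays and the third with R80C lay at the software error, so that no difference is given for it.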
